A study of Mus musculus with 2 samples.

Results

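The genes described here encode the AP-1 (activator protein 1) transcription factors of the FOS, JUN, ATF and BATF families, together with the early growth response factor EGR1. There were 10 of them among 18193 genes on the array: Fos, Fosb, Fosl1, Fosl2, Jun, Junb, Jund, Atf3, Batf and Egr1. A probe set, the group of short oligonucleotides that reports 1 transcript on an Affymetrix array, was counted for a gene only if the platform annotation gave it that gene symbol and no other. This rule found 14 probe sets of 45037, and all 10 genes had at least 1. The rule itself uses names and no measured value, but the 10 genes were put together with earlier results of these data known, so their brightness is described and not tested.

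The study profiled 2 samples, with 1 array each. The first was bone marrow cells from the femurs of C57BL/6 mice, exposed for 4 days to ID8 cells, a mouse ovarian surface epithelial tumour line that the labels also write as 1D8. By its title the sample was induced with supernatant, but its protocol sets ID8 cells above the marrow cells in a transwell plate. The product is called CD11b+Gr1+ MDSC, for myeloid-derived suppressor cells, which are immature and dampen T cell responses. The second was control bone marrow cells of the same strain, labelled with the same CD11b+Gr1+ phenotype and with no tumour cell co-culture among its characteristics. The labels give neither its time in culture, nor the number and age of the mice, nor a sort of the cells.

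AP-1 is not a single protein but a family of dimers. FOS proteins cannot pair with themselves and bind DNA as heterodimers, chiefly with JUN proteins, while JUN proteins can also form homodimers. Each partner holds a basic region that touches DNA and a leucine zipper that joins the pair. Many of these genes, and Egr1 with them, are immediate early genes: they are transcribed within minutes of a growth factor, cytokine or stress signal through MAP kinases, without new protein synthesis, and their mRNAs are short-lived. In myeloid cells AP-1 works beside NF-kB at inflammatory genes, and EGR1 is known for its part in monocyte and macrophage differentiation.

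Only the array of ID8-induced MDSC could be read gene by gene. Down the 45037 rows of the value table, 49.9% of the steps from row to row were rises in the ID8-induced column and 6.89% in the control column. Split at its own last value, 91.67, the control column held 0 rises among its 22626 higher values and 0 among its 22411 lower ones, so its values stood in descending order and were not tied to probe sets. No control signal, fold change or test is therefore given for any gene, and nothing below shows that the tumour cells raised or lowered a transcript. With 1 array, no signal has a replicate error, and the number of arrays limits the precision. The RNA was pooled over the cells of a sample, so fewer cells of a type and less RNA per cell cannot be told apart.

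Signals are MAS5 intensities on a linear scale. The floor used below, 68.77, is the 40th percentile of this array. It is a mark on the scale and not a detection call, and a signal above it does not by itself show that a gene was expressed. The percentile of a probe set says what percent of the array's probe sets gave a lower signal. Probe sets differ in how well they hybridise, so a difference in signal between genes does not show a difference in mRNA amount. Percentiles, and the choice of the brightest genes of a list to be named, rank probe set signals only.

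Markers of the labelled cells were bright as far as they could be read. Of the 8 markers of CD11b+Gr1+ cells, 5 had a probe set of their own, and all 5 lay at or above the 90th percentile, among them Itgam, which encodes CD11b, at 2375. Ly6g, Ly6c1 and Ly6c2, the genes of the Gr1 antigens, were not analysed here because no probe set named them alone. Of 9 epithelial and mesothelial markers that ID8 cells could bring, 6 passed the floor on their brightest probe set, where 71.3% of all named genes did, and 0 reached the 90th percentile. The highest was 239.17, for Cldn3. Fibroblast markers passed in 2 of 6 cases, lymphoid markers in 5 of 7 and erythroid markers in 2 of 4, and only Acta2 and Alas2 among these 3 lists reached the 90th percentile. Acta2 read 790.11, but 56.89 and 46.17, below the floor, on its other probe sets, and Alas2 read 1693. The part of other cells in the member signals was not tested.

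Most member probe sets were bright on this array. Of the 14, 12 lay at or above the floor, against 60% of all probe sets, and 11 at or above the 90th percentile, against 10.0%. Their signals ran from 53.01 to 6154 with a median percentile of 95.5. Read by gene, 9 of 10 members passed the floor on their brightest probe set, where 71.3% of all named genes did, and 8 of 10 on every probe set, where 49.7% did. On the brightest probe set 9 reached the 90th percentile (14.8% of all named genes), and 1, Jun, reached the 99th (1.39%). These shares are descriptions of 1 array. Genes with more probe sets have more chances to be bright, and the members had 1 or 2: of the 6 with 1 probe set, 5 reached the 90th percentile, against 8.7% of all genes with 1, and of the 4 with 2, all 4 did, against 16.4% of all genes with 2.

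**Figure D1:**
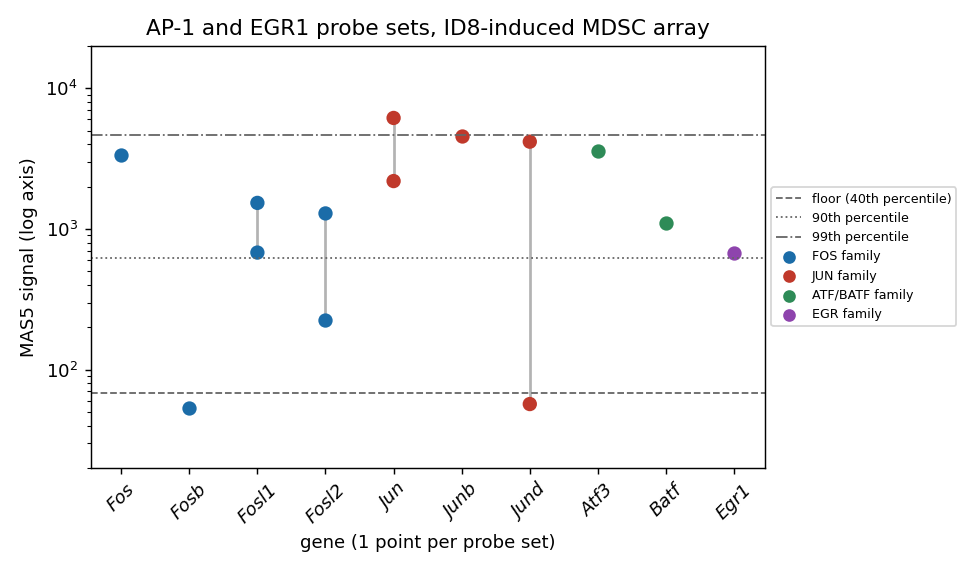
MAS5 signal (log axis) of each of the 14 member probe sets in the single ID8-induced MDSC array, by gene, with colours for the families and a grey line joining probe sets of 1 gene; dashed, dotted and dash-dotted lines mark the 40th (68.77), 90th (619.81) and 99th (4651) percentiles. All points but Fosb at 53.01, 1 of Jund at 56.97 and 1 of Fosl2 at 223.52 lie above the 90th percentile; heights of different genes are not comparable, because probe sets hybridise differently.

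The JUN family, the chief partners of FOS proteins, had a probe set at or above the 90th percentile for all 3 genes. Of their 5 probe sets, 4 passed the floor. Jun, whose product c-JUN is switched on by JNK phosphorylation, read 6154 on one probe set and 2190 on the other (percentiles 99.4 and 97.2). Junb, whose product activates many AP-1 sites more weakly than c-JUN and can oppose it, read 4603 on its only probe set (percentile 98.99). Both Jun probe sets and that of Junb lay above the 90th percentile, and the brighter one of Jun above the 99th.

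Jund, which encodes the most broadly and steadily expressed JUN protein, gave an equivocal reading. The probe set designed on its RefSeq mRNA read 4174 (percentile 98.8), while the probe set designed on an expressed sequence tag read 56.97 (percentile 33.1), below the floor. As deposited, the brighter was 73.3 times the dimmer, a size that is uncertain because the dimmer lies below the floor. Among the 4695 genes with 2 probe sets the median ratio was 2.12, 33.4% had probe sets on both sides of the floor, and 99.6% had a smaller ratio than Jund. The cause of the disagreement was not tested, so Jund stands as above the floor on 1 of its 2 probe sets.

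The FOS family was mixed. Fos, the classical immediate early gene whose product c-FOS pairs chiefly with JUN proteins, read 3353 (percentile 98.3). Fosb, which encodes a close relative of c-FOS, read 53.01 (percentile 30.3) and was the only member whose every probe set lay below the floor; 1 probe set reported each of these genes. This means only that the probe set gave no signal above the floor.

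Fosl1 and Fosl2 encode FRA-1 and FRA-2, which lack the strong activation domain of c-FOS and tend to appear later and last longer than it after a stimulus. Fosl1 read 1533 and 680 on 2 probe sets designed on the same mRNA record (percentiles 95.9 and 90.8), a ratio of 2.25. Fosl2 read 1290 on the probe set designed on an expressed sequence tag and 223.52 on that designed on the RefSeq mRNA (percentiles 95.1 and 75.9), a ratio of 5.77. Both genes were above the floor on every probe set, and Fosl1 was above the 90th percentile on both. Of all genes with 2 probe sets, 53.7% had a smaller ratio than Fosl1, 64.3% a smaller one than Jun, at 2.81, and 85.9% a smaller one than Fosl2.

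**Figure D2:**
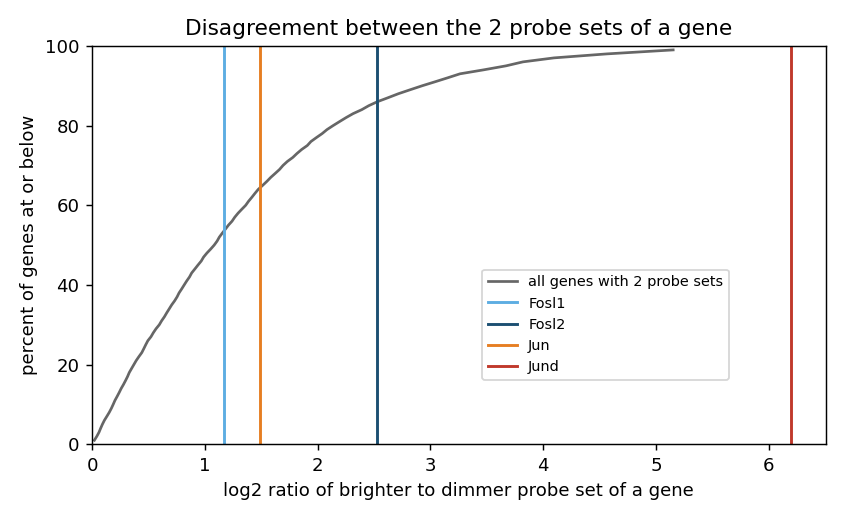
Cumulative percent of the 4695 genes with 2 probe sets (y axis) by the log2 ratio of the brighter to the dimmer probe set (x axis), drawn up to the 99th percentile of genes, with vertical lines for the 4 members that have 2 probe sets. Fosl1 and Jun lie near the middle of the curve, Fosl2 at 85.9% and Jund beyond its end.

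The remaining AP-1 members pair with JUN proteins and lack a FOS-type activation domain. Atf3, induced by many stresses and known in mouse macrophages to restrain genes switched on by Toll-like receptors, read 3572 (percentile 98.5). Batf, which pairs with JUN proteins and acts with IRF4 or IRF8 at composite DNA sites in lymphocytes and dendritic cells, read 1098 (percentile 94.2). Each had a single probe set, so neither has a second reading within the array.

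Egr1, a zinc finger factor that binds GC-rich sites and is bound and restrained by NAB proteins, read 676 on its single probe set (percentile 90.7). It lay just above the 90th percentile of the array, at 619.81, and at 9.83 times the floor.

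**Figure D3:**
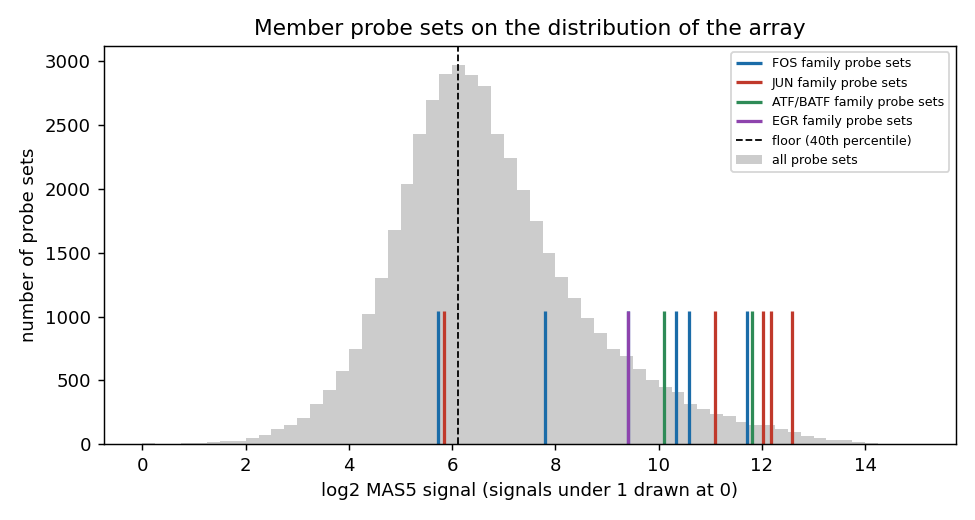
Histogram of log2 MAS5 signal over the 45037 probe sets of the ID8-induced MDSC array (grey bars, number of probe sets), with a coloured line for each of the 14 member probe sets and a dashed line at the floor of 68.77. Of the 14 lines 2 lie left of the floor, 1 each of the FOS and JUN families, and the others lie to its right, 11 of them in the upper tail above the 90th percentile.

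AP-1 and EGR genes are known as targets of their own and related factors, so the DNA before their starts is shown for the members that held a searched motif. RefSeq promoters of the GRCm38.p6 build, 250 bases before to 50 after a start, were found for 8 of 10 members, all but Fosl1 and Egr1. The 6 stretches below end before the start used for that promoter, run 5′ to 3′ on the gene's strand and have the motif in capitals.
Jun, chr4:95052234-95052293, minus strand: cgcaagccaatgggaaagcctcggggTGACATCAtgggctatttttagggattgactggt
Fos, chr12:85473797-85473856, plus strand: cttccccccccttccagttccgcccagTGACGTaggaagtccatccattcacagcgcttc
Batf, chr12:85686595-85686654, plus strand: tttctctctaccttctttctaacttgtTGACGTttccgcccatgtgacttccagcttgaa
Atf3, chr1:191183334-191183393, minus strand: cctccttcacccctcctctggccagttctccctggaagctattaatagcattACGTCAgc
Fosl2, chr5:32136367-32136426, plus strand: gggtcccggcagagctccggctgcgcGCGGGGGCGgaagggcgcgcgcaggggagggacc
Fosb, chr7:19310077-19310106, minus strand: gtgacgcaagcGCGGGGGCGggtcccggag

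The Jun stretch holds TGACATCA, 45 bases upstream, a variant of the AP-1 element that is known as a site for c-JUN at its own gene. The stretches of Fos, Batf and Atf3 hold TGACGT, the core of the cyclic AMP response element bound by CREB and ATF proteins, 66, 98 and 8 bases upstream, in Atf3 on the opposite strand. Those of Fosl2 and Fosb hold GCGGGGGCG, an EGR1-type site, 79 and 50 bases upstream. In the RefSeq gene table, Fosb extends 73 bases further upstream than the start used here. Its stretch was cut to 30 bases, but it still lies, motif included, within the annotated gene.

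Both strands of all 32851 promoters were searched. TGACATCA was in 1 of 8 member promoters and 3.62% of all promoters, TGACGT in 3 of 8 and 7.51%, and GCGGGGGCG in 2 of 8 and 2.91%. The first 2 of these were added after the member sequences had been read. A kappa B pattern, modelled on NF-kB sites and searched with its middle bases left free, was in 3 of 8 (Atf3, Fosb and Fosl2) and 20.7%. A match to so loose a pattern does not show a site that NF-kB binds. The consensus AP-1 element TGANTCA (7.81% of all promoters), the full element TGACGTCA, which contains TGACGT (1.79%), the CArG box of serum response factor (1.63%) and GCGTGGGCG (0.612%) were in 0 of 8. These counts say only which letters stand in windows of 300 bases. Of the 2 members with GCGGGGGCG, Fosb read 53.01 and Fosl2 223.52 and 1290. A relation of any motif to signal was not tested.

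Fos and Batf are also neighbours. On chromosome 12, with 1 protein-coding gene between them in the RefSeq table, lies Jdp2, itself a bZIP gene whose product, a partner of JUN proteins, mostly represses AP-1 sites. Jdp2 read 1893 on one probe set and 86.24 on the other (percentiles 96.7 and 48.6). All 3 neighbours reached the 90th percentile on their brightest probe set, where 14.8% of all named genes did, but Jdp2 did not on its other. Fos and Batf are members, chosen with earlier results known. A relation of position to signal was not tested.

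Other members of the AP-1 and bZIP group, the partners that shape which dimers form, were all above the floor on their brightest probe set: 12 of 12 measured passed (71.3% of all named genes) and 6 reached the 90th percentile (14.8%), with a median percentile of 88.4 against 61.4 for all named genes. Atf4, the effector of the integrated stress response and an activator of Atf3, read 3434, 2975 and 61.35, the last below the floor. Mafg, a small MAF protein, read 2966 and 847, and Bach1, a repressor that pairs with small MAF proteins at haem-regulated genes, read 981 and 435. On every probe set, 7 of the 12 passed, near the 49.7% of all named genes. The 5 that did not, named for that reason after their values were seen, were Atf2, Atf4, Atf7, Maf and Bach2.

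The rest of the EGR group lay on both sides of the floor, and both genes of its corepressors reached the 90th percentile. Egr2, a relative of Egr1 known from nerve myelination and T cell tolerance, read 29.56 and 33.48, below the floor on both probe sets. Egr3 read 217.23 and 154.26 and Egr4 107.84, all above the floor and below the 90th percentile. Nab1 and Nab2, which encode the corepressors that bind EGR proteins, read 1260, 667 and 95.41 (Nab1) and 1033 (Nab2). In all, 4 of the 5 genes passed the floor, near the 71.3% of all named genes, and the median percentile of the 5 was 75.4.

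Immediate early genes outside these families spread from below the floor to the top of the array. Of 24, 23 passed the floor on their brightest probe set (71.3% of all named genes). There 12 reached the 90th percentile (14.8%) and 5 the 99th (1.39%), with a median percentile of 90.04. The 24 genes had 44 probe sets in all, and 19 of them passed on every probe set (49.7% of all named genes). Gadd45b, a stress sensor upstream of p38, read 10751, 6171 and 189.05 on its 3 probe sets, and Ier3, a survival gene induced with NF-kB, read 10285. Dusp1, the phosphatase that switches off p38 and JNK, read 6077, and Klf2, a zinc finger factor that quiets monocytes, 5348. The last of the 5, Zfp36, whose product destroys AU-rich mRNAs such as that of Tnf, read 4982 and is named after its value was seen. Dusp4, a nuclear MAP kinase phosphatase, lay below the floor at 63.54.

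The kinases and factors that switch on these genes passed the floor in 17 of 17 measured cases (71.3% of all named genes) and reached the 90th percentile in 6 (14.8%), with a median percentile of 85.8. They had 53 probe sets in all, and 11 of the 17 passed on every probe set (49.7%). Map2k1, which encodes the ERK kinase MEK1, read 4709, and Map3k8, the kinase TPL2 that links Toll-like receptors to ERK, 2529. Map3k1, an upstream kinase of JNK, read 1671 and 153.66. Creb1, whose product binds cyclic AMP response elements, read from 10.27 to 1007 over 6 probe sets. An mRNA signal says nothing of the phosphorylation through which these kinases act.

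Genes with known AP-1 or EGR1 sites split. Of 18 measured, 14 passed the floor on their brightest probe set (77.8%, beside 71.3% of all named genes). There 9 reached the 90th percentile (14.8%) and 3 the 99th (1.39%), with a median percentile of 89.7. On every probe set, 12 of the 18 passed (49.7% of all named genes). The inflammatory genes Il1b (interleukin 1 beta) and Tnf (tumour necrosis factor) read 6332 and 4190. Cd44, an adhesion receptor, read 5571, 4385, 2438 and 73.11, and Ptgs2 (cyclooxygenase 2) read 4732 and 3966. Below the floor lay Mmp13 at 16.96 and Mmp3 at 29.17, collagenase 3 and stromelysin 1, the matrix proteases that are textbook AP-1 targets in fibroblasts, Plau (urokinase) at 38.81 and 15.86, and Csf2 (GM-CSF), named after its value was seen, at 53.53. With 1 array, no relation between the AP-1 signals and those of the target genes could be tested.

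Some heat shock genes respond to handling and stress, as several AP-1 genes do. Those on the list passed the floor in 8 of 8 cases (71.3% of all named genes), and 7 reached the 90th percentile (14.8%). The 8 genes had 21 probe sets, which favours a reading by the brightest. Hspa1b read 9363, 7454 and 6033 and Hspa1a 4196. These 2 genes are near-identical copies, so their probe sets may read either transcript. Hsp90aa1 read 6834, 5942, 5630, 105.03 and 22.91, and Hspa8 5396, 4898, 1902 and 1290. Their median percentile was 97.4, beside 97.1 for the 10 members. The list median is not a measure of handling, and the part of handling in the member signals was not tested.

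**Figure D4:**
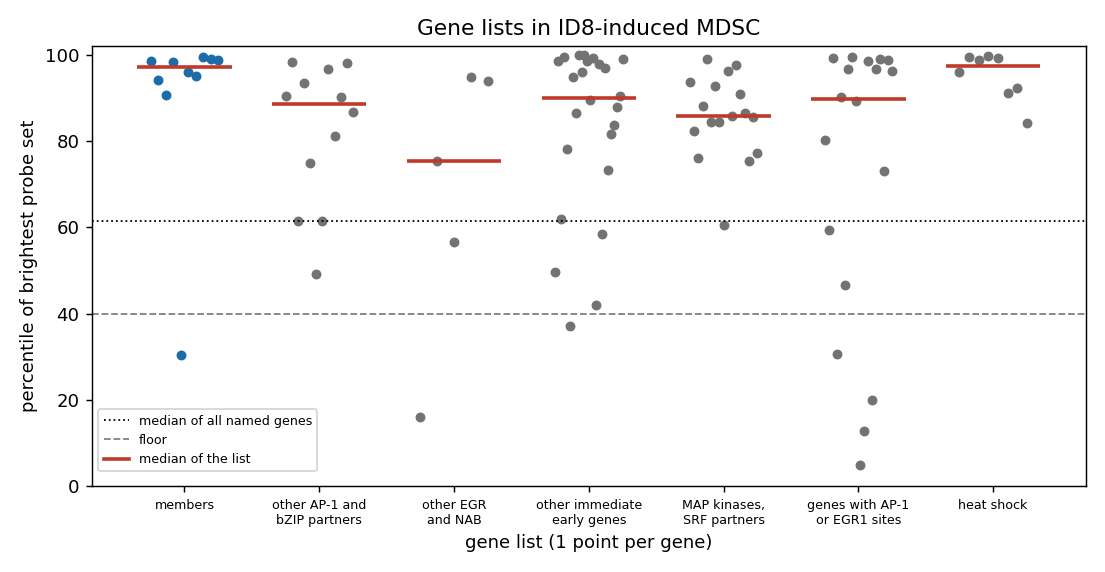
Percentile on the ID8-induced MDSC array of the brightest probe set of each gene (y axis, 1 point per gene) for the 10 members (blue) and 6 other lists (grey), with red bars at list medians, a dotted line at the median of all named genes (61.4) and a dashed line at the floor. List medians run from 75.4 for the EGR and NAB genes to 97.4 for heat shock genes, all above the dotted line, and the single member below the floor is Fosb.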

How the data were processed

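RNA of 2 samples was hybridised to 1 Affymetrix array each. Per the labels' protocols, biotinylated cRNA was made from TRIzol-extracted total RNA. MAS5 is named in the submitters' processing notes, and its version and scaling target are not given here. The deposited table holds 1 linear signal intensity for each of 45037 probe sets, used as it stands.

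Names came from GEO's platform annotation, in which 34945 probe sets carried 1 symbol, 932 several and 9160 none. Of the first kind, 34741 had an Entrez ID in the GRCm38.p6 table, and 0 symbols changed. Each member probe set was read separately. Counts by gene used the brightest probe set, which favours genes with many. For each of the 6 pathway lists, the 4 brightest genes, up to 3 below the floor and all EGR and NAB genes were to be named. The members and lists were chosen with earlier results of these data known. The design allowed no test between groups. Alternatives were other floors, suffix-free probe sets and the mean over probe sets. Counting scripts were checked on simulated data. The planned description of protein sequences was not made. Python 3.11.15, numpy 2.4.6, pandas 2.3.3, scipy 1.17.1 and matplotlib 3.10.9 were used.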

Additional observations from a re-analysis of the deposited data

How the results depend on the processing

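Of 78 values under alternatives, 74 stayed within 1.5 times the value given above, but many of these could not have left that range. The 4 outside it were brightest-probe-set signals replaced by a mean of log2 signals over all probe sets of the gene. Jun then read 3671, Fosl1 1021, Fosl2 537 and Jund 488, each still above the floor. These 4 are the only members with 2 probe sets, so the mean could change no other member's signal. With the floor at the 20th percentile (38.75), 14 of 14 member probe sets passed, Fosb and the dimmer Jund probe set included; at the 60th (119.96) and with the floor from both columns, 12 did, as above. The 14 probe sets carry no suffix letter, and 0 further ones name a member beside other genes, so those alternatives changed no member value. Percentiles among probe sets with 1 symbol differed by at most 3.16 points. On that scale Egr1 (89.6) and the dimmer Fosl1 probe set (89.7) fell below the 90th percentile, so the counts there would be lower. No paired analysis was possible because each group held 1 array and the control values were not tied to probe sets.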
